A study of Homo sapiens with 12 samples.

Results

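The 60 genes described here lie on the outer long arm of human chromosome 3, in bands 3q25 to 3q29, and are called the distal 3q genes. All 60 symbols had a row among the 58395 genes of the count table, none was absent and none had more than 1 row. In the table's genome build, GRCh38, they run along chromosome 3 from the first annotated base of DHX36, position 154272546, to the last of LMLN, position 198043720, a stretch of 43.771 Mb. They were selected on measured values: genes of this stretch read lower in the line K/VP.5 than in its parent K562, and higher again in the edited clone, in these same libraries. Both of those contrasts therefore chose the genes, and their values are given below as a description with no test. The contrast of the edited clone with K562 did not fix a sign in advance, but it rests on the same libraries.

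The study asked whether repairing a weak splice site in TOP2A, the gene of topoisomerase IIα, restores the response of resistant leukemia cells to etoposide, a drug that holds topoisomerase II on cut DNA. RNA was sequenced in bulk from 3 lines, with 4 libraries each. The edited line, K/VP.5/edit-3 (edit-3 for short), is 1 clone of K/VP.5. It had received Cas9 protein with a guide RNA and a repair oligonucleotide over the end of exon 19 of TOP2A, and was found by a genomic PCR probe for edited alleles. K/VP.5 is itself clonal, an unedited subline grown from K562 that is resistant to etoposide. K562 is the parental line, an established erythroid-like line of chronic myeloid leukemia. The labels give etoposide at 0.5 µM every other week in the medium of all 3 lines together, and name no separate culture behind each library. The p-values below therefore speak to the scatter among these 12 libraries, part or all of which may be technical. In bulk RNA, fewer cells with a transcript and less transcript per cell cannot be told apart.

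As background, distal 3q is gained in many squamous carcinomas, where PIK3CA, PRKCI, ACTL6A and DCUN1D1 have been studied as its growth-promoting genes. In myeloid leukemia the same stretch is known for rearrangements around MECOM, a zinc-finger transcription factor gene. The genes chosen have unrelated jobs: they include the receptor that takes up iron-loaded transferrin, translation factors, a proteasome subunit, parts of the secretory pathway, mitochondrial proteins, kinases and transcription factors.

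The 12 libraries held 25311993 to 37065946 counted reads. Levels are counts-per-million values (CPM), with library sizes scaled by the trimmed mean of M values (TMM), and levels of different genes are set side by side only per kilobase of exon. Pairs of libraries of 1 line differed by more than counting error, with a chi-square per degree of freedom of 6.68 to 67.4, so no pair was merged as 1 library deposited more than once; this does not show that the libraries are independent cultures. TOP2A itself averaged 416 ± 25.1 CPM in edit-3, 359 ± 14.5 CPM in K/VP.5 and 519 ± 25.8 CPM in K562 (SD, n = 4 each), a gene total that does not show the edited splice site. Erythroid leukemia markers such as GATA1, at 184 to 326 CPM, were read in all 12 libraries. The summed level of 12 markers of other cell types was 2060 to 3331 CPM in edit-3, 376 to 457 CPM in K/VP.5 and 217 to 249 CPM in K562, carried mainly by the collagen gene COL1A2 (2491, 230 and 6.82 CPM) and the epithelial adhesion gene EPCAM (331, 154 and 169 CPM, in the same order of lines). Of those 12 markers, MS4A1 and KRT5 had 0 reads in every library, and the part of the others in the results below was not tested.

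Sequence is shown for 4 of the genes that carry the description: TFRC, the gene with the highest level, AP2M1 and ST6GAL1, which were among the lowest in K/VP.5 relative to K562, and SKIL, which read highest in K/VP.5. These 4 were chosen after their values were seen. Each line gives the 250 bases before the first listed RefSeq transcription start, 5′ to 3′ on the gene's own strand, in build GRCh38.p14. Capitals mark GGGCGG or its reverse complement CCGCCC, a core of sites for Sp1-family factors, and TATAAA. The windows are chr3:196082091-196082340, minus strand for TFRC, chr3:184174605-184174854, plus strand for AP2M1, chr3:186930276-186930525, plus strand for ST6GAL1 and chr3:170357465-170357714, plus strand for SKIL.
TFRC: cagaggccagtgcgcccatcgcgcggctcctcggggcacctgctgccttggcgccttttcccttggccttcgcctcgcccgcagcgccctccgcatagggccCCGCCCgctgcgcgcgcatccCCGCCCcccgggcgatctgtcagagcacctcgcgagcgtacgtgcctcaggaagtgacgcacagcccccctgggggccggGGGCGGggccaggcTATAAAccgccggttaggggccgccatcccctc
AP2M1: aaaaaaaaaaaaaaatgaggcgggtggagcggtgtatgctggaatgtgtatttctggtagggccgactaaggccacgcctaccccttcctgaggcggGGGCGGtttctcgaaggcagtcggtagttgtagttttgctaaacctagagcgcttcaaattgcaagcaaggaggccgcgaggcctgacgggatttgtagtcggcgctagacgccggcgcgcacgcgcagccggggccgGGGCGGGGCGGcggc
ST6GAL1: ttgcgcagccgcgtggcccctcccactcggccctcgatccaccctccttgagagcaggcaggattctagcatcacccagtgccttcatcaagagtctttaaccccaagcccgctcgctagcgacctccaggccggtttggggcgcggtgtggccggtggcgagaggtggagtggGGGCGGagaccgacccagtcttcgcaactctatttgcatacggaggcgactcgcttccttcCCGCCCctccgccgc
SKIL: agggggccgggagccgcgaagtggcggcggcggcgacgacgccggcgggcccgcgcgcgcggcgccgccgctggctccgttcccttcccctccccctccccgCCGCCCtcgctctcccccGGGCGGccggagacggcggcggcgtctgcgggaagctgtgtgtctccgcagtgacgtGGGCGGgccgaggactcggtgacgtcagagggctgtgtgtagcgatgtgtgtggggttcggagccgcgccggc
Overlapping GGGCGG matches at the end of the AP2M1 window run together in 1 block of capitals. The TFRC window had 3 GGGCGG matches and 1 TATAAA, a GC content of 74.4% and 29 CpG pairs. The SKIL window had 3 GGGCGG matches, a GC content of 78.4% and 42 CpG pairs, the AP2M1 window had 3 matches, 60.4% and 25, and the ST6GAL1 window had 2 matches, 65.6% and 22.

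RefSeq windows were matched for 55 of the 60 genes; SENP2, ACTL6A, ATP11B, ETV5 and KPNA4 had no entry in the table used. Searched on both strands, GGGCGG was in 67.3% of the 55 windows and in 42.3% of all 27305 windows of the same length. CCGGAA, the core of many ETS-family sites, was in 32.7% of the 55 and in 14.8% of all. CCAAT was in 38.2% against 33%, and TATAAA was in 9.09% against 11.1%. The median GC content was 64.4% for the distal 3q genes and 58% for all windows, with a median of 20 and 11 CpG pairs. The 27305 windows were not limited to genes read in these lines, so the sets are unlike in that as well as in GC content. These counts describe letters in a window and show no binding.

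Across the 59 distal 3q genes that could be tested, the middle gene stood at nearly the same level in edit-3 as in K562 and lower in K/VP.5 than in either. The median log2 difference of K/VP.5 from K562 was -0.53, a ratio of 0.69, with quartiles of -0.66 and -0.36, beside 0.0026 over all 18286 genes tested. The median log2 difference of edit-3 from K/VP.5 was 0.46, a ratio of 1.37, beside 0.0041 over all genes. These are the contrasts that chose the genes, so nothing is read from them. The spread around the median was wide, at -2.01 to 0.41 for K/VP.5 against K562 and -0.51 to 1.30 for edit-3 against K/VP.5.

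In each library, the median over the 59 genes of log2(CPM + 0.5) minus the K562 mean of the gene gives 1 value. That value was -0.01, -0.032, -0.18 and -0.15 in the edit-3 libraries, -0.53, -0.56, -0.48 and -0.53 in the K/VP.5 libraries, and 0.089, -0.055, 0.017 and -0.075 in the K562 libraries. The 4 K/VP.5 libraries lay apart from the other 8, while the edit-3 and K562 ranges overlapped. The same value over all genes tested stayed between -0.0045 and 0.011 in every library.

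**Figure D1:**
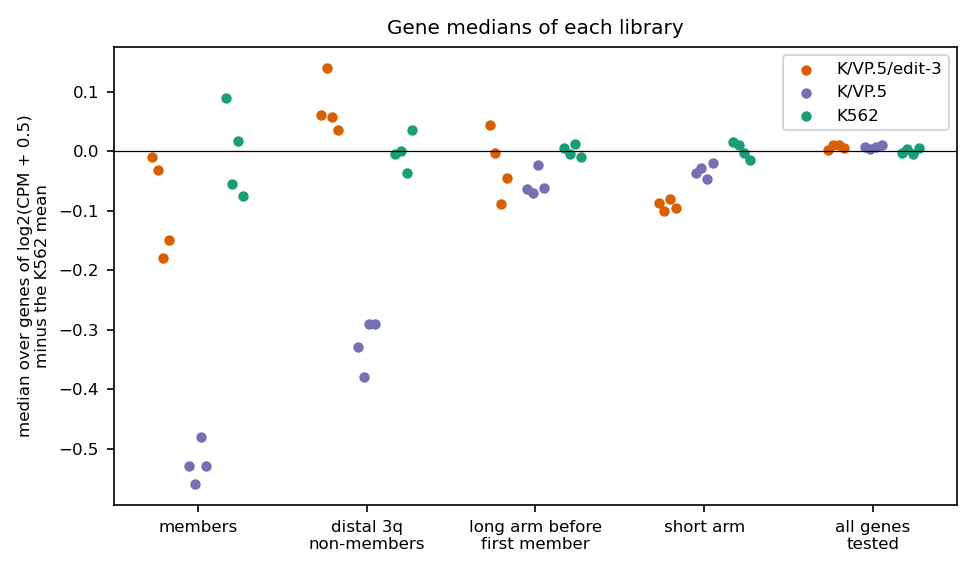
Gene medians of each library, as log2(CPM + 0.5) minus the K562 mean of each gene (vertical axis), for the distal 3q genes chosen (members), the other genes of the same stretch, the rest of chromosome 3 and all genes tested; each point is 1 library, with edit-3 left of K/VP.5 and K562. The K/VP.5 points lie at -0.56 to -0.48 for the members and near 0 for all genes.

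Of the 59 genes, 54 read lower in K/VP.5 than in K562 and higher in edit-3 than in K/VP.5 by their fitted values. SSR3 and TIPARP were lower in K/VP.5 than in K562 and lower still in edit-3, GNB4 and GPR160 were not lower in K/VP.5, and SKIL went the other way in both contrasts. Edit-3 lay between the other lines for 34 genes, above both for 22 and below K/VP.5 for 3. All 4 K/VP.5 libraries lay below all 4 K562 libraries for 48 of the 59 genes (81.4%), beside 18.4% of all genes tested, and all 4 edit-3 libraries lay above all 4 K/VP.5 libraries for 44 (74.6%), beside 13.7%. For 38 genes (64.4%), beside 5.2% of all genes, the K/VP.5 libraries were below all 8 others. The choice of genes fixes most of these counts. Among the 162 tested genes of the same stretch that were not chosen, the same shares were 40.1%, 49.4% and 27.8%, in that order. Of the 59 differences between K/VP.5 and K562, 44 lay between -0.8 and -0.2 on the log2 scale, 10 were under -0.8 and 5 were over -0.2.

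**Figure D2:**
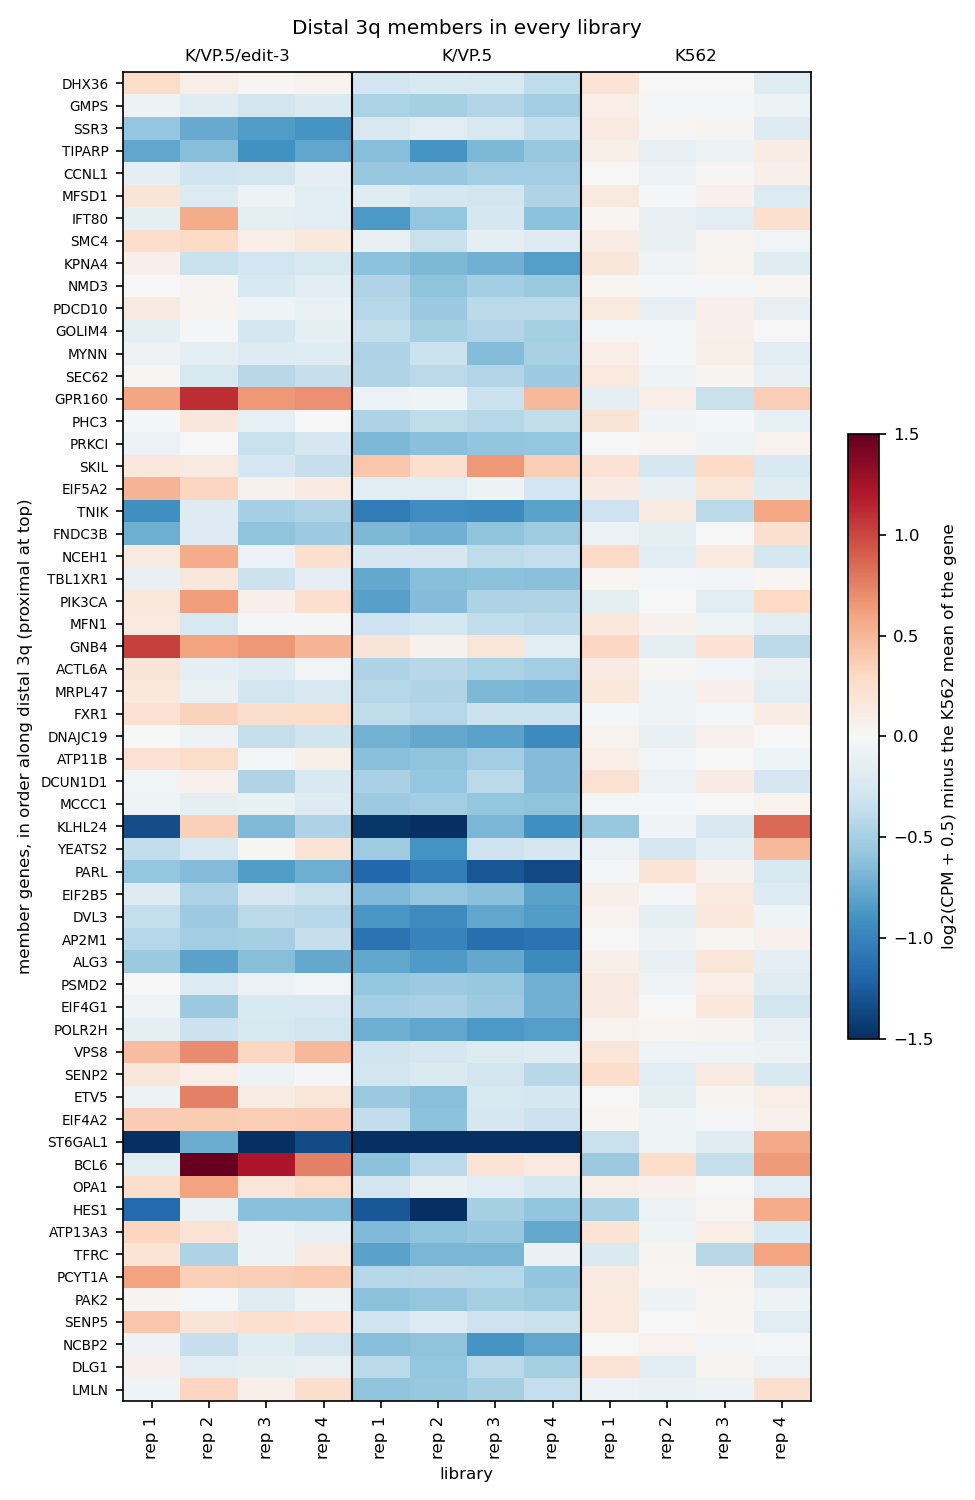
Level of the 59 tested distal 3q genes (rows, in order along the chromosome) in each of the 12 libraries (columns), as log2(CPM + 0.5) minus the K562 mean of the gene; the colour scale is held at -1.5 to 1.5. The K/VP.5 columns are blue for most rows, with SKIL red and ST6GAL1, KLHL24, PARL and AP2M1 among the darkest, and the edit-3 columns hold rows of both colours.

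The spread within a line differed between genes. The coefficient of variation over 4 libraries had a median of 10.5% in edit-3, 5.85% in K/VP.5 and 10% in K562. It exceeded 25% for 6 genes in edit-3, 4 in K/VP.5 and 7 in K562, and was highest for BCL6 in edit-3 at 53.9%, for HES1 in K/VP.5 at 37.7% and for KLHL24 in K562 at 47.5%. K562 replicate 4, the library with the fewest reads, was the highest of its line for 22 of the 59 genes and the lowest for 28. In edit-3, replicate 1 was the highest of its line for 32 genes and replicate 2 for 25.

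Edit-3 against K562 was the contrast with a test, edgeR's quasi-likelihood test with Benjamini-Hochberg adjustment over all 18286 genes and a threshold of 0.05. By it, 14 distal 3q genes were lower in edit-3 (23.7%, beside 18.6% of all genes tested), 9 were higher (15.3%, beside 20.6%) and 36 did not pass. The 23 that passed were 39% of the genes, beside 39.2% of all genes tested, so their share was that of the background. The median difference was -0.088, beside 0.0045 over all genes, with a range of -1.31 to 1.07. Only ST6GAL1 and BCL6 differed by 2-fold or more, and BCL6 did not pass. A gene that did not pass is not shown to be at the K562 level.

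**Figure D3:**
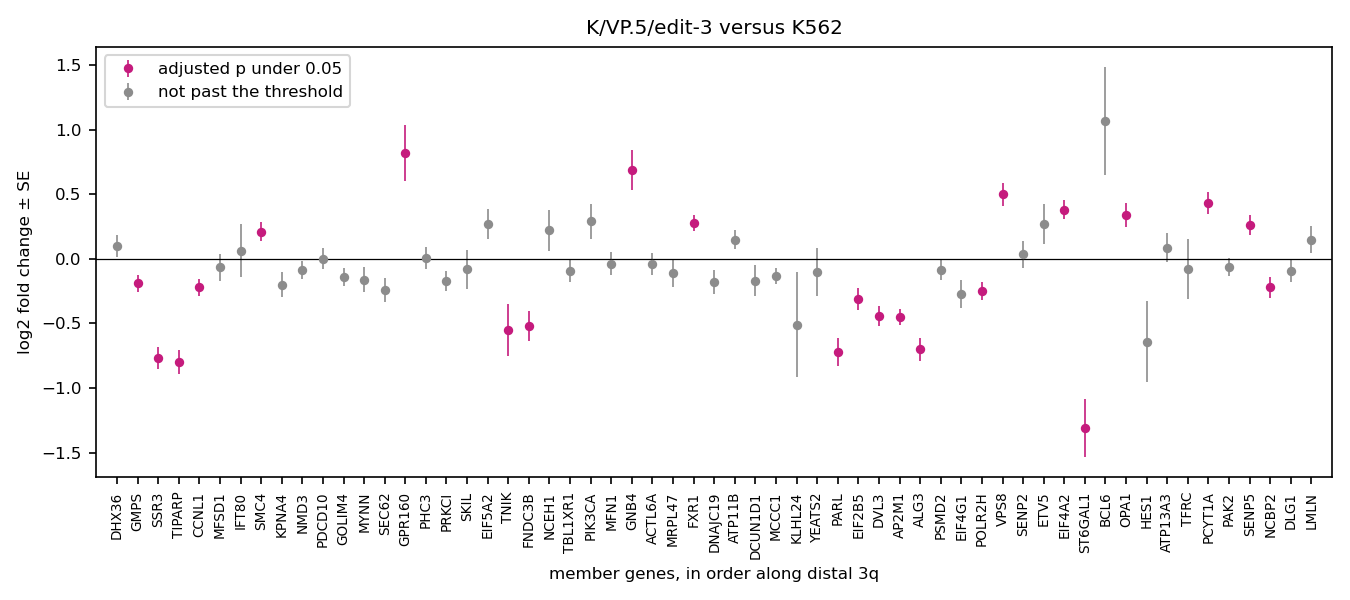
log2 fold change of edit-3 over K562 (vertical axis, points with bars of 1 SE) for the 59 tested distal 3q genes in chromosomal order; coloured points passed an edgeR adjusted p of 0.05. The 14 lower genes reach -1.31 (ST6GAL1) and the 9 higher genes reach 0.82 (GPR160), and BCL6 at 1.07 has the widest bar.

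Genes of the secretory pathway and of membranes were the largest role group, with 14 genes, and held both directions in edit-3. Against K562, 5 of the 14 fell in edit-3 (ST6GAL1, SSR3, ALG3, FNDC3B and AP2M1), 2 rose (VPS8 and PCYT1A) and 7 did not pass, with a median log2 difference of -0.11. Over all genes tested 18.6% fell and 20.6% rose. In K/VP.5 all 14 had fitted values below K562, with a median of -0.53. Against K/VP.5, 13 of 14 were higher in edit-3, with a median of 0.54. The choice of genes fixes most of these signs, here and in the role groups below. Over all 18286 genes tested, 9099 were below K562 in K/VP.5 and 9230 were above K/VP.5 in edit-3.

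TFRC, the transferrin receptor through which cells take up iron, had the highest level of all 60 genes per kilobase of exon, at 280 CPM per kb in edit-3, 196 in K/VP.5 and 296 in K562. Its level was 2590, 1633, 2141 and 2478 CPM in the edit-3 libraries, 1290, 1398, 1397 and 2095 CPM in the K/VP.5 libraries, and 1938, 2317, 1691 and 3386 CPM in the K562 libraries. The ranges of all 3 lines overlapped, and K/VP.5 replicate 4 and K562 replicate 4 were the highest of their lines. Edit-3 differed from K562 by -0.08 ± 0.232 (log2 ± SE, edgeR adjusted p = 0.82), and the sign turned to 0.15 without K562 replicate 4 and to 0.043 without edit-3 replicate 2. K/VP.5 differed from K562 by -0.59 ± 0.233.

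ST6GAL1, a Golgi enzyme that adds sialic acid to the ends of N-glycans, was the gene furthest below K562 in both other lines. It read 137, 261, 155 and 172 CPM in the edit-3 libraries, 99, 100, 119 and 128 CPM in those of K/VP.5, and 347, 418, 383 and 649 CPM in K562, and no range overlapped another. In edit-3 it fell to 0.404 of the K562 level, a log2 difference of -1.31 ± 0.227 (edgeR adjusted p = 0.00059). The K/VP.5 level was 0.248 of that of K562. The call held in all 19 alternatives run.

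AP2M1, the medium subunit of the clathrin adaptor AP-2 that binds cargo such as the transferrin receptor, was steadier between libraries. It read 440, 412, 420 and 467 CPM in the edit-3 libraries, 275, 296, 270 and 274 CPM in those of K/VP.5, and 587, 561, 599 and 621 CPM in K562. The 3 lines formed 3 separate ranges, with edit-3 between the others. AP2M1 fell by 0.45 on the log2 scale in edit-3 relative to K562 (SE 0.0625, edgeR adjusted p = 4.1e-05), and K/VP.5 stood at -1.09 ± 0.0631 from K562.

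SSR3, a subunit of the translocon-associated protein complex of the endoplasmic reticulum, was one of the 3 genes lower in edit-3 than in K/VP.5. It read 178, 158, 149 and 144 CPM in the edit-3 libraries, 227, 238, 226 and 207 CPM in those of K/VP.5, and 292, 271, 276 and 234 CPM in K562. All edit-3 libraries lay below the other 8, and K/VP.5 and K562 overlapped at their edges. The log2 difference of edit-3 from K562 was -0.77 ± 0.0856 (edgeR adjusted p = 4.3e-06). ALG3, a mannosyltransferase that builds the N-glycan precursor, read 72.8, 61.2, 68.3 and 62.6 CPM in the edit-3 libraries, 62, 59, 62.5 and 54.9 CPM in those of K/VP.5, and 113, 98.9, 121 and 96.6 CPM in K562. Edit-3 and K/VP.5 overlapped for ALG3, and K562 lay above both. In edit-3 it fell by 0.70 on the log2 scale relative to K562 (SE 0.088, edgeR adjusted p = 1.5e-05). FNDC3B, a membrane protein with fibronectin type III domains, averaged 48.6 ± 8.34 CPM in edit-3, 44.6 ± 2.54 CPM in K/VP.5 and 69.5 ± 8.56 CPM in K562 (SD, n = 4 each). Its edit-3 libraries also overlapped those of K/VP.5 and lay below all of K562 (log2 difference from K562 -0.52 ± 0.114, edgeR adjusted p = 0.0021).

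VPS8 and PCYT1A stood above K562 in edit-3. VPS8, a subunit of the CORVET tethering complex of early endosomes, read 53.9, 64.5, 48.7 and 55.2 CPM in the edit-3 libraries, 31.6, 32.9, 33.8 and 34.3 CPM in those of K/VP.5, and 44.5, 37.8, 37.5 and 37.1 CPM in K562. PCYT1A, the rate-limiting enzyme of phosphatidylcholine synthesis, read 128, 108, 109 and 111 CPM in the edit-3 libraries, 62.3, 62.8, 62.4 and 55.8 CPM in those of K/VP.5, and 92.3, 86, 87.1 and 72.4 CPM in K562. For both genes edit-3 was the highest line and K/VP.5 the lowest, with no overlap. VPS8 rose by 0.50 ± 0.091 in edit-3 relative to K562 on the log2 scale (edgeR adjusted p = 0.00043). PCYT1A rose by 0.43 ± 0.0856 (edgeR adjusted p = 0.00088). ATP13A3, a polyamine-transporting ATPase, read 305, 280, 231 and 226 CPM in the edit-3 libraries, 154, 160, 164 and 143 CPM in those of K/VP.5, and 281, 232, 260 and 207 CPM in K562. K/VP.5 lay below the rest, and edit-3 and K562 overlapped (log2 difference 0.09 ± 0.11, edgeR adjusted p = 0.57). The other 6 genes of the group, GOLIM4, MFSD1, SEC62, NCEH1, ATP11B and TFRC, did not pass either, and SEC62, which helps proteins enter the endoplasmic reticulum, came nearest at -0.24 ± 0.0924 (edgeR adjusted p = 0.051).

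Among the 11 genes of translation and RNA handling, 4 fell in edit-3 relative to K562 (EIF2B5, POLR2H, CCNL1 and NCBP2), 2 rose (EIF4A2 and FXR1) and 5 did not pass, beside 18.6% and 20.6% of all genes tested that fell and rose. All 11 had fitted values below K562 in K/VP.5, with a median of -0.55, and all 11 were above K/VP.5 in edit-3, with a median of 0.45. EIF4G1, the scaffold of the cap-binding complex that starts translation, had the second highest level per kilobase, at 171 CPM per kb in edit-3, 138 in K/VP.5 and 206 in K562. It read 1612, 1150, 1445 and 1427 CPM in the edit-3 libraries, 1186, 1205, 1159 and 1021 CPM in those of K/VP.5, and 1844, 1678, 1879 and 1399 CPM in K562. Edit-3 overlapped both other lines, and K/VP.5 lay below K562 in every library. The difference of edit-3 from K562, -0.27 ± 0.107 on the log2 scale, did not pass (edgeR adjusted p = 0.058). It passed without edit-3 replicate 1 (edgeR adjusted p = 0.021) or without K562 replicate 4 (edgeR adjusted p = 0.0083). Without edit-3 replicate 2 it was -0.19 and did not pass (edgeR adjusted p = 0.16). With TMM factors taken without chromosome 3 it was -0.29 (edgeR adjusted p = 0.049).

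EIF4A2, an RNA helicase of the same translation complex, read 408, 410, 407 and 409 CPM in the edit-3 libraries, 243, 205, 264 and 251 CPM in those of K/VP.5, and 321, 299, 307 and 329 CPM in K562. Edit-3 was highest and K/VP.5 lowest with no overlap, and the 4 edit-3 libraries had a coefficient of variation of 0.353%, the lowest of any gene and line here. EIF4A2 rose by 0.38 ± 0.0741 in edit-3 relative to K562 (log2 ± SE, edgeR adjusted p = 0.0008). FXR1, an RNA-binding protein related to the fragile X protein, averaged 186 ± 7.01 CPM in edit-3, 119 ± 3.84 CPM in K/VP.5 and 153 ± 8.75 CPM in K562 (SD, n = 4 each), and rose by 0.28 ± 0.0631 (edgeR adjusted p = 0.0023). EIF2B5, the catalytic subunit of the exchange factor that recharges eIF2, averaged 124 ± 10.3 CPM in edit-3, 96.2 ± 6.17 CPM in K/VP.5 and 154 ± 15.4 CPM in K562, and fell by 0.31 on the log2 scale (SE 0.0868, edgeR adjusted p = 0.01). POLR2H, a subunit shared by the nuclear RNA polymerases, fell by 0.25 (SE 0.0678, edgeR adjusted p = 0.0085). CCNL1, a cyclin tied to splicing, fell by 0.22 (SE 0.0666, edgeR adjusted p = 0.016), a call lost without the filter on low counts (edgeR adjusted p = 0.082). NCBP2, the small subunit of the nuclear cap-binding complex, fell by 0.22 (SE 0.081, edgeR adjusted p = 0.044). That call was lost in 9 of the 19 alternatives, among them each fit without edit-3 replicate 2, 3 or 4 or any 1 K562 library (edgeR adjusted p of 0.054 to 0.11).

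EIF5A2, a relative of the elongation factor eIF5A, was among the 5 genes highest in K/VP.5 relative to K562. It read 21.1, 18.4, 15.3 and 16 CPM in the edit-3 libraries, 12.9, 13.1, 13.8 and 11.9 CPM in those of K/VP.5, and 15.9, 13.5, 16.6 and 12.8 CPM in K562. K562 overlapped both other lines, and edit-3 lay above K/VP.5. Neither EIF5A2 (0.27 ± 0.119, edgeR adjusted p = 0.092) nor DHX36, a helicase that unwinds G-quadruplexes (0.10 ± 0.0867, edgeR adjusted p = 0.38), passed between edit-3 and K562, and NMD3 and MRPL47 did not pass either.

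The signalling group had 11 genes, of which 10 could be tested: 3 fell in edit-3 relative to K562 (TIPARP, TNIK and DVL3), 2 rose (GPR160 and GNB4) and 5 did not pass, beside 18.6% and 20.6% of all genes tested that fell and rose. In K/VP.5, 8 of the 10 had fitted values below K562, with a median of -0.59. GNB4 and GPR160, at 0.05 and 0.02 on the log2 scale, were the others. GNB4, a beta subunit of heterotrimeric G proteins, read 110, 81.9, 84.7 and 77.2 CPM in the edit-3 libraries, 61.5, 56.5, 61.2 and 48.1 CPM in those of K/VP.5, and 67.2, 49, 62.9 and 40.8 CPM in K562. GPR160, a G protein-coupled receptor, read 6.79, 10, 7.1 and 7.3 CPM in the edit-3 libraries, 4.05, 4.14, 3.38 and 6.32 CPM in those of K/VP.5, and 3.89, 4.72, 3.35 and 5.79 CPM in K562. For both genes all edit-3 libraries lay above the other 8, while K/VP.5 and K562 overlapped. GNB4 rose by 0.69 ± 0.154 in edit-3 relative to K562 (edgeR adjusted p = 0.0025). GPR160 rose by 0.82 ± 0.214 (edgeR adjusted p = 0.0067).

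TIPARP, a PARP-family enzyme induced by the aryl hydrocarbon receptor, differed in the other direction. It read 18.4, 20.4, 16.8 and 18.4 CPM in the edit-3 libraries, 20.5, 17.2, 19.9 and 21.5 CPM in those of K/VP.5, and 34.2, 29.4, 30.4 and 34.6 CPM in K562. Edit-3 and K/VP.5 overlapped, and K562 lay above both. TIPARP fell by 0.80 on the log2 scale in edit-3 relative to K562 (SE 0.0946, edgeR adjusted p = 8.2e-06). DVL3, a relay protein of Wnt signalling, averaged 149 ± 8.73 CPM in edit-3, 111 ± 5.44 CPM in K/VP.5 and 202 ± 18.8 CPM in K562 (SD, n = 4 each), and fell by 0.44 (SE 0.0769, edgeR adjusted p = 0.00033). TNIK, a kinase of the Wnt and JNK pathways, read 57.8, 96.1, 77.4 and 79.9 CPM in the edit-3 libraries, 52.9, 57.3, 56.4 and 62.8 CPM in those of K/VP.5, and 88.3, 120, 82.9 and 164 CPM in K562. Edit-3 overlapped both other lines, and K562 replicate 4 was the highest library. The TNIK difference of -0.55 ± 0.201 passed narrowly (edgeR adjusted p = 0.047), and without K562 replicate 4 it was -0.32 and did not pass (adjusted p = 0.11 by the same edgeR test). It did not pass either without edit-3 replicate 1, 3 or 4, K/VP.5 replicate 2 or 3, or K562 replicate 2, at edgeR adjusted p of 0.052 to 0.11.

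PIK3CA, the catalytic subunit of PI3 kinase alpha, read 43.7, 60.8, 41.2 and 46.7 CPM in the edit-3 libraries, 22.1, 24.8, 28.3 and 28.6 CPM in those of K/VP.5, and 35.5, 39, 35.1 and 48.4 CPM in K562. K/VP.5 lay below all other libraries, and edit-3 and K562 overlapped (log2 difference 0.29 ± 0.135, edgeR adjusted p = 0.11). PAK2, a kinase activated by Rac and Cdc42, read 292, 279, 250 and 271 CPM in the edit-3 libraries, 185, 190, 201 and 197 CPM in those of K/VP.5, and 314, 269, 288 and 270 CPM in K562. Again K/VP.5 lay apart, and edit-3 and K562 overlapped (-0.06 ± 0.0705, edgeR adjusted p = 0.51). PRKCI, an atypical protein kinase C, PDCD10, a protein of the cerebral cavernous malformation complex, and DLG1, a polarity scaffold, did not pass between edit-3 and K562. LPP, a focal adhesion protein, was the 1 gene not tested: it had 0 reads over the 4 edit-3 libraries, 0 over the 4 K/VP.5 libraries and 4 over the 4 K562 libraries. A count of 0 allows up to 3 reads per line, which is 0.0246 CPM for edit-3 and 0.0233 for K/VP.5, so LPP was not detectable in those lines at this depth.

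**Figure D4:**
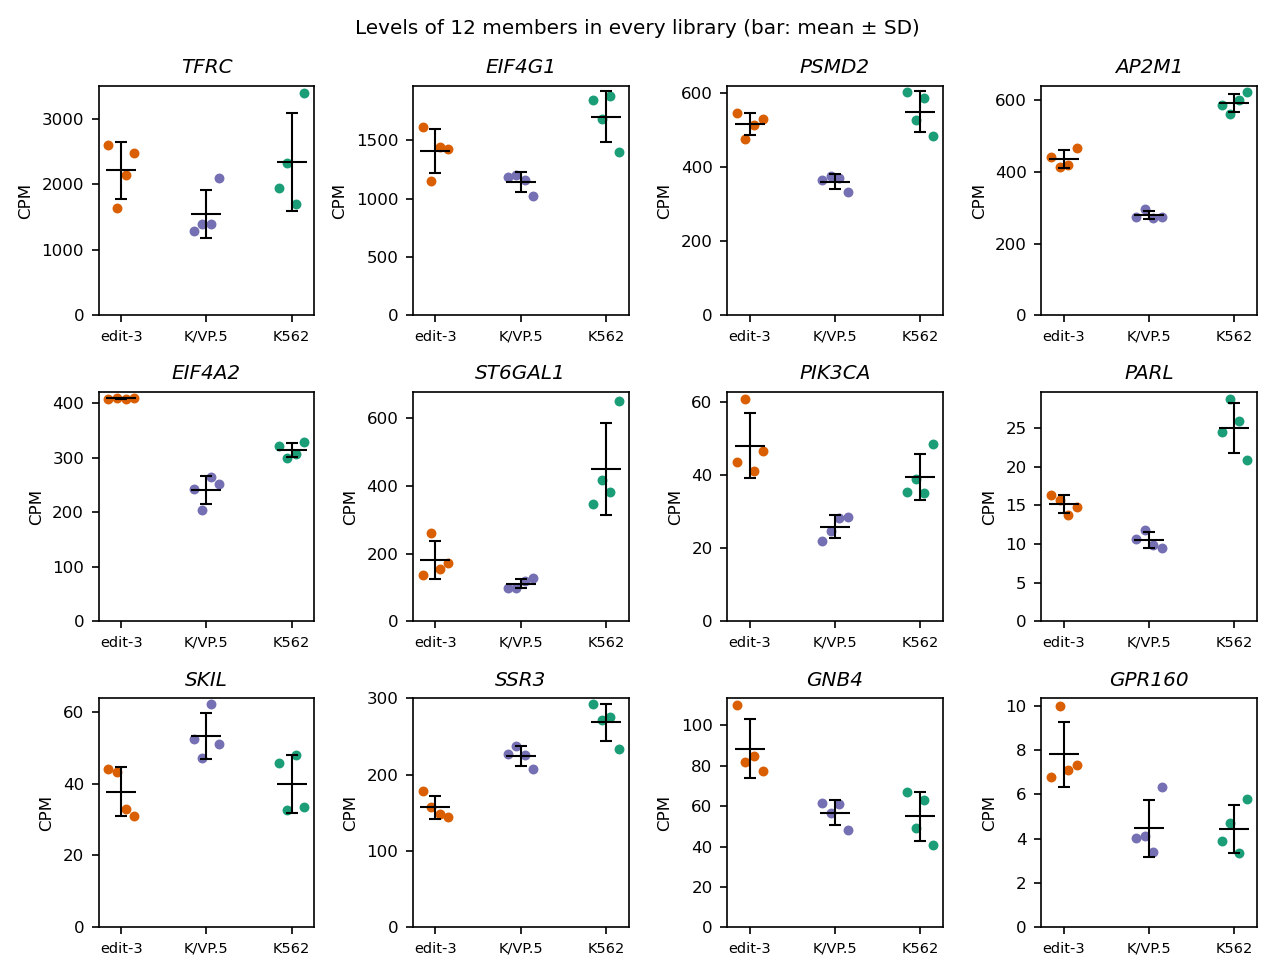
Levels of 12 distal 3q genes in CPM (vertical axes start at 0) in the 4 libraries of edit-3, K/VP.5 and K562; points are libraries and bars are the mean ± SD. By its mean, edit-3 is highest for EIF4A2, PIK3CA, GNB4 and GPR160 and lowest for SSR3 and SKIL, and K/VP.5 is lowest for 8 of the 12.

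None of the 9 genes of transcription and chromatin passed between edit-3 and K562, beside 39.2% of all genes tested, and 6 of the 9 had fitted values below 0. In K/VP.5, 8 of the 9 were below K562 by their fitted values, with a median of -0.48. SKIL, a repressor of SMAD signalling, was the exception. It read 43.9, 43.2, 32.9 and 30.9 CPM in the edit-3 libraries, 52.4, 47, 62.2 and 51 CPM in those of K/VP.5, and 45.7, 32.6, 47.9 and 33.4 CPM in K562. Edit-3 lay below K/VP.5 in every library, and K562 overlapped both. SKIL differed between K/VP.5 and K562 by 0.41 ± 0.151, the highest of the 59 genes, and between edit-3 and K562 by -0.08 ± 0.152 (edgeR adjusted p = 0.71), with the sign turning to 0.015 without K562 replicate 3.

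BCL6, a zinc-finger repressor best known from germinal centre B cells, had the largest positive difference of edit-3 from K562 and the largest standard error. It read 3.1, 13.2, 8.94 and 6.36 CPM in the edit-3 libraries, 2.15, 2.55, 4.15 and 3.97 CPM in those of K/VP.5, and 2.26, 4.39, 2.66 and 5.79 CPM in K562. Edit-3 replicate 1 lay inside the ranges of both other lines, and the other 3 edit-3 libraries lay above them. The difference of 1.07 ± 0.419 did not pass (edgeR adjusted p = 0.063). It passed at 1.33 without edit-3 replicate 1 (edgeR adjusted p = 0.009) and at 1.34 without K562 replicate 4 (edgeR adjusted p = 0.035). Without edit-3 replicate 2, the highest library, it was 0.70 and did not pass (edgeR adjusted p = 0.2). DESeq2 also called it, at 1.06 (adjusted p = 0.016). HES1, a repressor downstream of Notch, read 22.4, 47.2, 32.7 and 32.7 CPM in the edit-3 libraries, 20.7, 15.2, 35.8 and 33.6 CPM in those of K/VP.5, and 36, 47.7, 51.2 and 75.1 CPM in K562. Edit-3 overlapped both other lines, and K/VP.5 lay just below K562. HES1 differed between edit-3 and K562 by -0.64 ± 0.314 (edgeR adjusted p = 0.14), and between K/VP.5 and K562 by -0.99 ± 0.317.

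TBL1XR1, a subunit of nuclear receptor corepressor complexes, read 238, 289, 205 and 235 CPM in the edit-3 libraries, 151, 165, 168 and 166 CPM in those of K/VP.5, and 262, 255, 250 and 263 CPM in K562. K/VP.5 lay below the rest, and edit-3 spread on both sides of the narrow K562 range (-0.09 ± 0.0881, edgeR adjusted p = 0.45, passing at -0.19 and 0.047 without edit-3 replicate 2). ACTL6A, an actin-like subunit of BAF chromatin remodellers, MYNN, a zinc-finger protein, PHC3, a Polycomb protein, YEATS2, a histone-acylation reader, and ETV5, an ETS factor, did not pass in edit-3 against K562. Their differences from K562 lay between -0.16 for MYNN and 0.27 for ETV5.

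The 5 mitochondrial genes were all below K562 in K/VP.5 by their fitted values, with a median of -0.57. Between edit-3 and K562, 1 fell, 1 rose and 3 did not pass. Among all genes tested, 18.6% fell and 20.6% rose. PARL, a protease of the inner membrane, read 16.4, 15.7, 13.7 and 14.8 CPM in the edit-3 libraries, 10.7, 11.8, 9.93 and 9.43 CPM in those of K/VP.5, and 24.5, 28.7, 25.9 and 20.9 CPM in K562. The 3 lines did not overlap, with edit-3 in the middle. PARL fell by 0.72 on the log2 scale in edit-3 relative to K562 (SE 0.11, edgeR adjusted p = 8.9e-05), and stood at -1.26 ± 0.112 in K/VP.5. OPA1, the dynamin-like protein that fuses inner membranes, averaged 219 ± 29.8 CPM in edit-3, 150 ± 8.35 CPM in K/VP.5 and 173 ± 12.6 CPM in K562 (SD, n = 4 each), and rose by 0.34 ± 0.0916 in edit-3 relative to K562 (edgeR adjusted p = 0.0081). MFN1, which fuses outer membranes, MCCC1, an enzyme of leucine breakdown, and DNAJC19, a co-chaperone of the import motor, did not pass, at -0.04, -0.13 and -0.18.

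Of the 5 genes of the ubiquitin, SUMO and proteasome group, 1 rose in edit-3 relative to K562 and 4 did not pass. Among all genes tested, 20.6% rose and 18.6% fell. The riser was SENP5, a SUMO protease, at 0.26 ± 0.0777 (edgeR adjusted p = 0.014). PSMD2, a base subunit of the proteasome's regulatory particle, read 546, 477, 515 and 531 CPM in the edit-3 libraries, 366, 376, 370 and 333 CPM in those of K/VP.5, and 604, 527, 586 and 483 CPM in K562. K/VP.5 lay below the other 8 libraries, which overlapped (edit-3 against K562 -0.09 ± 0.0779, edgeR adjusted p = 0.41). KLHL24, a substrate adaptor of a cullin ubiquitin ligase, varied widely within lines. It read 12.9, 42.4, 20.8 and 23.8 CPM in the edit-3 libraries, 11.7, 9.24, 20.3 and 17.3 CPM in those of K/VP.5, and 22.2, 32, 27.9 and 60.2 CPM in K562. Edit-3 overlapped both other lines, and K/VP.5 lay below K562. The standard errors were wide, with -0.51 ± 0.407 for edit-3 against K562 (edgeR adjusted p = 0.37) and -1.28 ± 0.416 for K/VP.5 against K562. DCUN1D1, which helps attach NEDD8 to cullins, and the SUMO protease SENP2 did not pass in edit-3.

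The last 5 genes serve cell division, nucleotide synthesis and transport, and 1 of them fell and 1 rose in edit-3 relative to K562. Among all genes tested, 18.6% fell and 20.6% rose. GMPS, which makes GMP from XMP, read 305, 283, 266 and 275 CPM in the edit-3 libraries, 231, 228, 237 and 223 CPM in those of K/VP.5, and 344, 318, 318 and 305 CPM in K562. The highest edit-3 library met the lowest K562 library at 305 CPM, and K/VP.5 lay below both lines. GMPS fell by 0.19 on the log2 scale in edit-3 relative to K562 (SE 0.0632, edgeR adjusted p = 0.03), a call lost in 6 of the 19 alternatives, among them those without edit-3 replicate 3 or 4 or K562 replicate 1 or 3 (edgeR adjusted p of 0.051 to 0.09). SMC4, a core subunit of the condensins, read 238, 243, 211 and 221 CPM in the edit-3 libraries, 182, 157, 178 and 172 CPM in those of K/VP.5, and 213, 183, 203 and 192 CPM in K562. Edit-3 and K562 overlapped for SMC4, and K/VP.5 ended just below K562. SMC4 rose by 0.21 ± 0.0736 in edit-3 relative to K562 (edgeR adjusted p = 0.038), a call lost in 13 of the 19 alternatives, among them those without edit-3 replicate 1, 2 or 4, any 1 K/VP.5 library or K562 replicate 2, 3 or 4 (edgeR adjusted p of 0.053 to 0.17). KPNA4, a nuclear import receptor, LMLN, a metallopeptidase, and IFT80, a protein of ciliary transport, did not pass.

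Some genes share exon bases with a neighbour, and how the counting treated strand is not given in the sources used. IFT80 had few reads and overlaps SMC4, whose reads amounted to 5534% of its own, so its level is uncertain. ACTL6A and MRPL47 overlap each other by 124 bp, PIK3CA overlaps KCNMB3 (14.9% as many reads), SMC4 overlaps TRIM59 (15.7%), EIF4A2 overlaps RFC4 (17.9%) and MYNN overlaps an antisense RNA (8.95%). DNAJC19 has 9 pseudogene rows in the table, with 3.56% as many reads as the gene. For the other genes with named pseudogenes the share was at most 1.02%.

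Along the chromosome, the stretches are described without a test, since the contrasts with K/VP.5 chose the genes. The median difference of K/VP.5 from K562 was -0.51 over the 10 tested genes of the first 10 Mb, -0.45 over the next 12, -0.61 over the next 18 and -0.52 over the last 19, and that of edit-3 from K/VP.5 was 0.36, 0.43, 0.49 and 0.56 in the same stretches. Across the 59 genes, Spearman's rho of position with the edit-3 to K/VP.5 difference was 0.43, with the K/VP.5 to K562 difference it was -0.19, and with the edit-3 to K562 difference it was 0.13. For mean level and exon length, rho lay between -0.11 and 0.21 over the 3 contrasts. These are descriptions across genes that share libraries, and genes are not independent replicates.

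The stretch also holds 162 tested genes that were not chosen. Their medians were 0.089 for edit-3 against K562, -0.46 for K/VP.5 against K562 and 0.49 for edit-3 against K/VP.5. Since the stretch itself was picked for these contrasts, these medians are a description too. The 265 tested genes of the long arm before DHX36 had medians of -0.028, -0.072 and 0.03, and the 466 of the short arm -0.097, -0.041 and -0.078, for the same 3 contrasts. In the last 10 Mb before DHX36, the 21 protein-coding genes tested had a median of -0.29 for K/VP.5 against K562 and 0.27 for edit-3 against K/VP.5, and in the 10 Mb before those the 40 genes had -0.083 and 0.17.

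**Figure D5:**
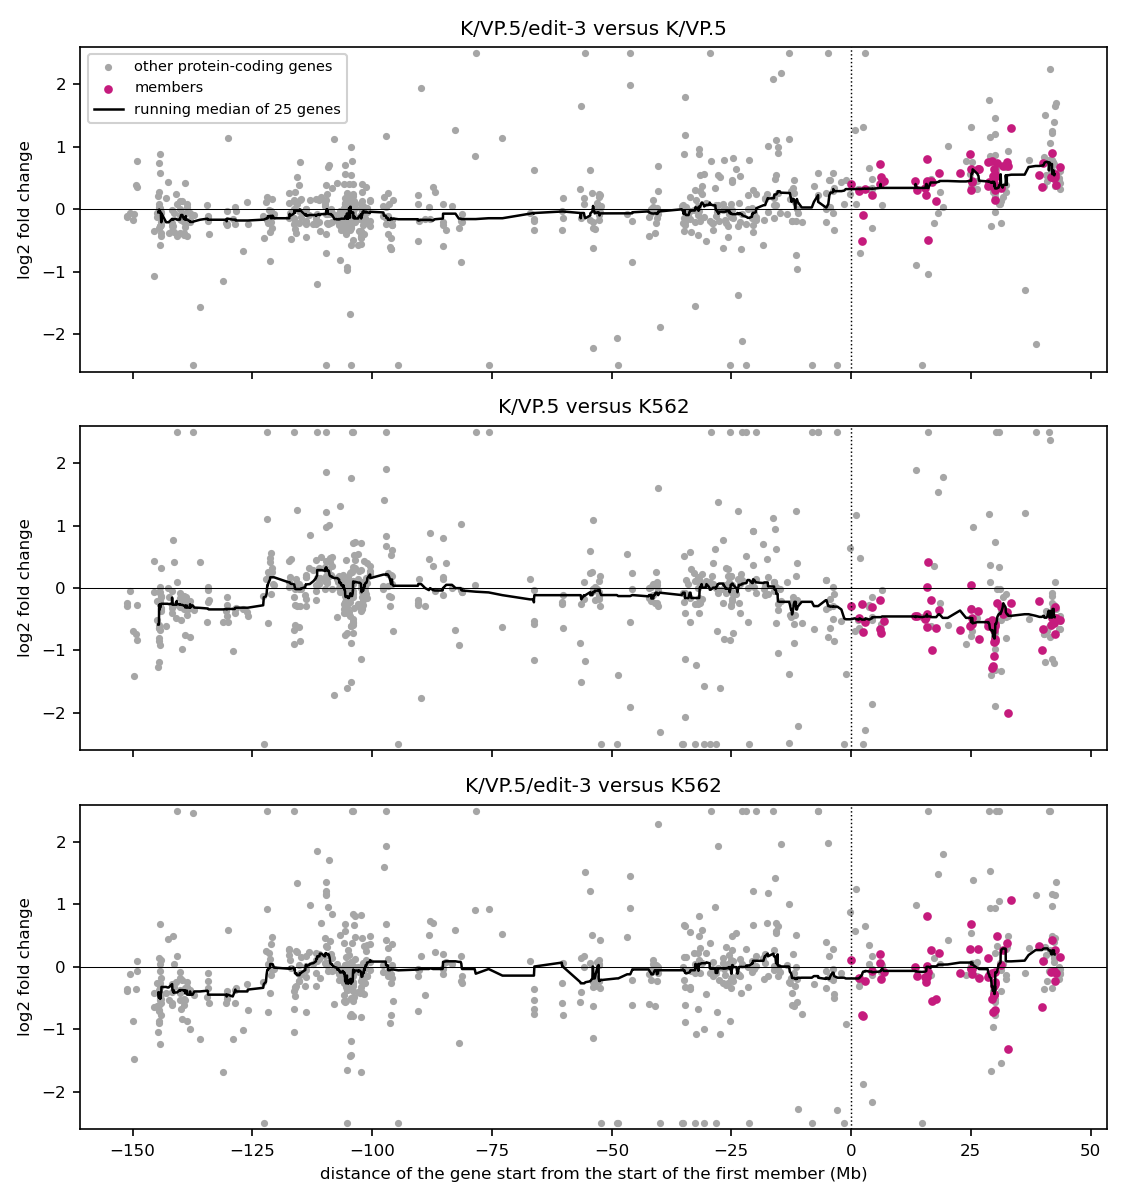
log2 fold change of protein-coding genes along chromosome 3 (vertical axes, with points beyond 2.5 drawn at the edge) against the distance of the gene start from the start of DHX36, in Mb, for edit-3 against K/VP.5 (top), K/VP.5 against K562 (middle) and edit-3 against K562 (bottom); coloured points are the 59 tested distal 3q genes chosen, grey points are other genes and the line is a running median. In the middle panel the running median is below 0 to the right of the dotted line, and in the top panel it is above 0 there.

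Of the 5 protein-coding genes just before DHX36, 4 are described. MBNL1, a splicing regulator, averaged 369 ± 42 CPM in edit-3, 273 ± 24.7 CPM in K/VP.5 and 394 ± 70.6 CPM in K562 (SD, n = 4 each), and RAP2B, a small GTPase, averaged 91 ± 5.81, 65.8 ± 6.59 and 171 ± 17.2 CPM in the same order. Both were lowest in K/VP.5. P2RY1, a receptor for ADP, averaged 6.46 ± 1.13 CPM in edit-3, 6.09 ± 0.402 CPM in K/VP.5 and 74.5 ± 4.32 CPM in K562. IGSF10 averaged 0.339 ± 0.1 CPM in edit-3, 32.2 ± 2.59 CPM in K/VP.5 and 1.67 ± 0.296 CPM in K562.

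Within the stretch, the 5 unchosen protein-coding genes highest in K/VP.5 relative to K562 stood above the whole range of the chosen ones. CLDN11, a tight-junction claudin, averaged 19.6 ± 2.24 CPM in edit-3, 40.3 ± 3.27 CPM in K/VP.5 and 0.122 ± 0.1 CPM in K562 (SD, n = 4 each). C3orf70 averaged 5.59 ± 0.305 CPM in edit-3, 5.26 ± 0.17 CPM in K/VP.5 and 0.598 ± 0.261 CPM in K562. MUC4, a membrane mucin, averaged 56.8 ± 10.8, 11.9 ± 1.96 and 2.31 ± 0.409 CPM, SERPINI1, a neuronal serine protease inhibitor, averaged 15 ± 2.15, 27.8 ± 0.865 and 7.52 ± 0.872 CPM, and NLGN1, a synaptic adhesion protein, averaged 1.88 ± 0.571, 1.85 ± 0.204 and 0.538 ± 0.192 CPM, all with edit-3 first and K562 last. These 5 were at their lowest in K562. At the other end, LIPH, a lipase, averaged 9 ± 3.09 CPM in edit-3, 10.4 ± 1.25 CPM in K/VP.5 and 26.2 ± 3.25 CPM in K562, and NRROS averaged 30.6 ± 3.56, 11.6 ± 1.07 and 26.7 ± 3.48 CPM. KLHL6, FAM131A and FAM43A, the other 3 of the 5 lowest, had log2 differences of K/VP.5 from K562 of -1.39, -1.31 and -1.19. MECOM, named after its values were seen, averaged 3.02 ± 0.437 CPM in edit-3, 24.5 ± 3.68 CPM in K/VP.5 and 33.8 ± 5.91 CPM in K562, so it was lowest in edit-3, not in K/VP.5 (edit-3 against K562 -3.48 ± 0.161, edgeR adjusted p = 3.3e-10).

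Paralogs and complex partners of the chosen genes that lie outside distal 3q were listed to show the rest of the pathways. Of 160 listed, 155 could be tested. Between edit-3 and K562, 22 rose and 32 fell (34.8%, beside 39.2% of all genes tested). Between K/VP.5 and K562, 27 rose and 31 fell (37.4%, beside 36.6%), and between edit-3 and K/VP.5, 17 rose and 19 fell (23.2%, beside 23.6%). Of these counts, the 17 became 11 without edit-3 replicate 4 and 10 without K/VP.5 replicate 1 or replicate 3, and the 19 became 30 without K562 replicate 4. Without the filter on low counts, the 31 lower in K/VP.5 than in K562 became 20. The medians were -0.022, 0.0036 and -0.033, where the chosen genes had -0.088, -0.53 and 0.46.

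Single partners did differ. Of the 4 tested partners of AP2M1 in the AP-2 complex, AP2B1 averaged 401 ± 20.9 CPM in edit-3, 336 ± 18.1 CPM in K/VP.5 and 606 ± 41.9 CPM in K562 (SD, n = 4 each). It fell by 0.60 on the log2 scale in edit-3 relative to K562 (SE 0.069, edgeR adjusted p = 6.1e-06) and by 0.85 in K/VP.5 relative to K562 (SE 0.0692, edgeR adjusted p = 1.9e-07). AP2A2 fell in both as well, by 0.42 in edit-3 (edgeR adjusted p = 0.00013) and by 0.61 in K/VP.5 (edgeR adjusted p = 4.4e-06). AP2S1 fell by 0.23 in K/VP.5 relative to K562 (edgeR adjusted p = 0.019), and AP2A1 passed in neither contrast. In edit-3 relative to K/VP.5, AP2B1 rose by 0.26 (edgeR adjusted p = 0.014) and AP2S1 by 0.33 (edgeR adjusted p = 0.0024). AP2A2 and AP2A1 did not pass there (edgeR adjusted p = 0.058 and 0.47). The translocon partner SSR4 averaged 44.6 ± 2.15 CPM in edit-3, 58 ± 2.54 CPM in K/VP.5 and 94.4 ± 2.66 CPM in K562, and, like SSR3, fell in edit-3 relative to K562 (-1.08 ± 0.0649, edgeR adjusted p = 5.9e-09), whereas SSR1 and SSR2 did not pass there.

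The other partners with the smallest p-values between edit-3 and K562 rose. GOLM1, a Golgi membrane protein related to GOLIM4, averaged 61.1 ± 3.19 CPM in edit-3, 77.4 ± 2.65 CPM in K/VP.5 and 7.6 ± 0.28 CPM in K562 (SD, n = 4 each; edit-3 against K562 3.01 ± 0.0726, edgeR adjusted p = 6.2e-13). GNB5, a G protein beta subunit like GNB4, averaged 8 ± 0.315 CPM in edit-3, 4.4 ± 0.443 CPM in K/VP.5 and 0.53 ± 0.164 CPM in K562 (3.90 ± 0.187, edgeR adjusted p = 4.8e-10). PIK3CD, the delta counterpart of PIK3CA, averaged 112 ± 4.46 CPM in edit-3, 110 ± 6.55 CPM in K/VP.5 and 47.7 ± 1.75 CPM in K562 (1.23 ± 0.0667, edgeR adjusted p = 2e-09). PAK1, the nearest relative of PAK2, averaged 24.8 ± 2.03 CPM in edit-3, 24.1 ± 1.95 CPM in K/VP.5 and 10.9 ± 1.48 CPM in K562 (1.18 ± 0.109, edgeR adjusted p = 5.7e-07). For PIK3CD and PAK1 the edit-3 and K/VP.5 means were close, and the test of edit-3 against K/VP.5 did not pass for either (edgeR adjusted p = 0.89 and 0.81). Of the 4 tested partners of TFRC, 2 fell in edit-3 relative to K562. STEAP3, the reductase that acts on iron taken up by the transferrin receptor, fell by 0.65 (edgeR adjusted p = 0.0078). SLC11A2 fell by 0.31 (edgeR adjusted p = 0.029). TFR2 at 0.21 and TF at 1.22 did not pass (edgeR adjusted p = 0.063 and 0.08). Between K/VP.5 and K562, STEAP3 did not pass (0.21, edgeR adjusted p = 0.37).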

How the data were processed

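RNA was sequenced from 4 libraries each of K/VP.5/edit-3, K/VP.5 and K562. Per the submitters' processing notes the tools named are HISAT2 2.1.0 and Subread 1.5.1 with featureCounts, on GRCh38; the annotation release, the strand setting, the handling of multimapped reads and the RNA selection are not stated there. The deposited table holds raw read counts per gene, made by the authors and not normalized. Lines came from the source names; a free-text description that names the parental cells for every library was not used.

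Genes passing edgeR's filterByExpr (18286 of 58395) were fitted in edgeR 4.0.16 with R 4.3.3: TMM scaling, robust quasi-likelihood, 1 coefficient per line over all 12 libraries, and Benjamini-Hochberg adjustment over all genes tested in each contrast. The SE is the log2 fold change divided by the square root of F. Those genes held 99.9% of the reads, and totals were 25311993 to 37065946 reads per library. Coordinates are from GENCODE release 29 by Ensembl ID (99.79% of rows matched). The limit set by a count of 0 covers counting error only.

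The 60 genes, the role groups, the partners and the genes printed by library were chosen with earlier results of these data known. Printed by library are the 10 highest in CPM, and the 5 lowest and 5 highest in K/VP.5 against K562 and in edit-3 against K562, plus PIK3CA and TNIK, chosen after their values were seen. Named genes not chosen are 4 of the 5 before DHX36 (1 is not reported here), the 5 lowest and 5 highest of the stretch in K/VP.5 against K562 with a mean of at least 1 CPM, and the 5 partners with the smallest p in edit-3 against K562; other partners and MECOM were named after their values were seen. Alternatives were RLE scaling, TMM without chromosome 3, no filter, a filter of 1 CPM in 4 libraries, only the 2 lines compared, DESeq2 1.42.0, a replicate block, and each library left out. Deviations of same-numbered libraries of K/VP.5 and K562 correlated at 0.31, 0.15, 0.14 and 0.51. K/VP.5 replicate 1 and K562 replicate 3, of unlike number, reached 0.29. Same-numbered libraries of edit-3 and K562 correlated at 0.47, 0.05, -0.11 and 0.31, and edit-3 replicate 1 with K562 replicate 3 at 0.41. The labels name no pairing, and these values do not settle whether libraries are paired. The procedure was tested on simulated counts: most 2-fold changes were recovered, and most of those of 0.5 on the log2 scale were missed. The first criterion set for that test, on all sizes together, was not met, and it was then limited to 2-fold changes. The simulation changed only a small share of the genes, whereas 39.2% of all genes tested passed between edit-3 and K562. The Benjamini-Hochberg cut-off was therefore stricter in the simulation, and the share missed there does not carry over to these data.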

Additional observations from a re-analysis of the deposited data

Results flagged for a closer look

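Of 177 sets of 4 libraries (59 distal 3q genes in 3 lines), 7 (3.95%) had 1 library far from the others of its line by Dixon's criterion, where chance gives about 1 in 20. In edit-3, replicate 2 stood high for IFT80 at 6.21 CPM and for GPR160 at 10 CPM, and replicate 1 stood high for PCYT1A at 128 CPM. In K/VP.5, replicate 4 stood high for TFRC at 2095 CPM and low for PCYT1A at 55.8 CPM. In K562, replicate 1 stood high for VPS8 at 44.5 CPM and replicate 4 stood high for LMLN at 40.6 CPM. The calls of GPR160, PCYT1A and VPS8 between edit-3 and K562 held with each of these libraries left out, at edgeR adjusted p of at most 0.025, 0.0041 and 0.0023 over the 12 fits that leave out 1 library.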

How the results depend on the processing

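Of the 23 distal 3q genes called between edit-3 and K562, 18 were called in all 19 alternatives, and GMPS, CCNL1, SMC4, TNIK and NCBP2 lost the call in 6, 1, 13, 9 and 9 of them. BCL6 and EIF4G1 gained it in 4 alternatives each and TBL1XR1 in 1. With 1 library left out, the numbers of genes higher and lower were 8 to 10 and 11 to 16, and in the other 7 alternatives 8 to 10 and 10 to 17. The sign turned for 3 genes that had not passed: ATP13A3 was -0.00093 without edit-3 replicate 1 (range over 12 fits -0.00093 to 0.16), TFRC was 0.043 without edit-3 replicate 2 and 0.15 without K562 replicate 4 (-0.21 to 0.15), and SKIL was 0.015 without K562 replicate 3 (-0.18 to 0.015). The median of the unchosen distal 3q genes in K/VP.5 against K562 was -0.42 with only the 2 lines in the fit, and -0.47 to -0.39 with 1 library left out. Among partners, those lower in K/VP.5 than in K562 numbered 20 without the filter, against 31 with it. Partners higher in edit-3 than in K/VP.5 numbered 10 to 17, with 11 without edit-3 replicate 4, 10 without K/VP.5 replicate 1 and 10 without K/VP.5 replicate 3, and those lower numbered 16 to 30, with 30 without K562 replicate 4. The cause of these shifts was not tested. With the replicate number as a block, 10 distal 3q genes were higher and 17 lower between edit-3 and K562, BCL6 (1.01, edgeR adjusted p = 0.021) and EIF4G1 (-0.27, edgeR adjusted p = 0.023) now among them, all genes called were 8121 in that contrast, 7681 in K/VP.5 against K562 and 5494 in edit-3 against K/VP.5, beside 7166, 6688 and 4309 without it, and partners lower in edit-3 than in K/VP.5 were 36, beside 19. Same-numbered libraries of edit-3 and K562 correlated at 0.47, 0.05, -0.11 and 0.31, and those of edit-3 and K/VP.5 at 0.36, -0.07, -0.07 and 0.31.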

Other observations

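Outside distal 3q, the outermost windows taken on the short arm of chromosome 3 also had medians below 0 in both derived lines relative to K562. The windows began 150 Mb before DHX36, so the end of the short arm lies in none of them. In the windows 150 to 140 Mb and 140 to 130 Mb before DHX36, the 49 and 30 protein-coding genes tested had median log2 differences of -0.41 and -0.46 in edit-3 against K562, of -0.27 and -0.32 in K/VP.5 against K562, and of -0.064 and -0.18 in edit-3 against K/VP.5. The windows were noticed after the values were seen, and no test was made of them.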
